A study of Mus musculus with 31 samples.

Results

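The mouse genes whose symbols run from Zfp700 to Zfp999 are high-numbered members of the Zfp series of zinc finger genes. The rule that defines them uses the symbol alone. The annotation holds 137 of them, of which 132 are among the 24593 genes listed for total RNA and 129 among the 20704 listed for ribosome-protected fragments (RPFs). Of these, 136 code for protein and Zfp783 is a non-coding RNA gene. In the RefSeq proteins, 131 members hold at least 1 C2H2 zinc finger, with a median of 11 fingers and a maximum of 36, and 111 hold the pattern of a KRAB A box.

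KRAB zinc finger proteins bind DNA through their arrays of C2H2 fingers, and most known targets lie in endogenous retroviruses and other transposable elements. The KRAB box recruits the corepressor TRIM28 (KAP1), which brings in the histone methyltransferase SETDB1 and HP1 proteins and so silences the bound locus. The genes lie in clusters of related copies, are expressed at low levels in most tissues and differ much between mouse strains. Members without a KRAB box are a mixed group that includes Zfp750, a regulator of epidermal differentiation, and Zfp703, a transcriptional corepressor of the NET family.

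The libraries came from a mouse skin squamous cell carcinoma (SCC) line, keratinocytes with activated HRas that carry an eGFP reporter. For TgfbrII the labels give fl/fl, whereas the study's own listing of these lines gives the deleted allele. In all groups the endogenous Eif2s1 gene, which encodes eIF2α, had been ablated by CRISPR-Cas9 and replaced by a PGK promoter-driven, myc-tagged lentiviral transgene. S51 cells carry wild-type eIF2α and can mount the integrated stress response (ISR), whereas S51A cells carry a form that cannot be phosphorylated and are ISR-null. Cells received vehicle (DMSO) or 100 nM bortezomib, a proteasome inhibitor, for 4.5 h per the labels. Total RNA was sequenced in 16 libraries, 4 per group, and RPFs in 15, S51 vehicle having 3 libraries and the other groups 4 each. The cells were single-cell clones, and the clone behind each library is not named. Differences between S51 and S51A therefore cannot be told apart from differences between clones, and p-values measure only the spread between these samples, which may be technical.

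Library totals ran from 18758668 to 22994713 counts in total RNA and from 1038826 to 4902237 in RPF. Summed counts of 7 keratinocyte markers lay between 10754 and 15477 CPM (counts-per-million of the TMM-scaled library size, the scale of all CPM values for single genes here) in every total RNA library. Those of 4 immune markers reached at most 0.228 CPM, with 2 of the 4 at 0, and those of 2 endothelial markers 0.670 CPM. The 5 fibroblast markers summed to 2.69 to 6.94 CPM, with 3 of the 5 at 0, and the 3 melanocyte markers to at most 1.02 CPM with 1 at 0. Eif2s1 itself was at 279 to 314 CPM in all total RNA libraries, a check of no genotype, since the transgene restores the transcript. Levels in bulk libraries do not tell fewer cells from less RNA per cell. One RPF library, S51 vehicle replicate 2, stood apart. Its genes differed from the other libraries of its group by 0.394 log2 units at the median, against 0.106 to 0.256 in the other RPF libraries, and its KRAB members lay 1.11 log2 units lower at the median. RPF results that rest on it are given with and without it.

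Most members were scarce. In total RNA 123 members had at least 1 count and 103 passed the filter on low counts and were tested, 87 with the KRAB pattern and 16 without. Zfp735, Zfp804b, Zfp831, Zfp882, Zfp957, Zfp966, Zfp967, Zfp973 and Zfp991 were listed at 0 in all total RNA libraries. In RPF 111 had a count, 92 reached 10 counts summed over the 15 libraries and 47 were tested, 33 with the KRAB pattern. A count of 0 in a library allows up to 3 counts, by counting error alone. In S51 vehicle total RNA the median tested member was at 2.22 CPM per kb of exon. Zfp706, a small single-finger protein that represses Klf4 in embryonic stem cells, was highest at 46.4 ± 1.05 CPM per kb (SD, n = 4). Zfp740 followed at 20.4 ± 0.672, Zfp930 at 14.7 ± 0.906, Zfp869 at 13.8 ± 0.417, Zfp809 at 12.4 ± 0.582 and Zfp961 at 11.5 ± 1.07 CPM per kb. On this scale the libraries of Zfp930 and Zfp869 overlapped, as did those of Zfp809 and Zfp961. The lowest tested member, Zfp976, was at 0.0577 CPM per kb. Reads were kept only where they mapped uniquely, and 15 members share at least 95% of their coding sequence with another, among them Zfp874a with Zfp874b and Zfp955a with Zfp955b, so their counts are uncertain.

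With bortezomib, the summed RNA of the family was lower in both lines, and a handful of members rose. The 4 S51 vehicle libraries held member counts that summed to 1762, 1821, 1823 and 1800 CPM of the unscaled library total, and the 4 bortezomib libraries 1425, 1398, 1454 and 1478. The S51A vehicle libraries held 1785, 1829, 1769 and 1863 and the bortezomib libraries 1497, 1528, 1538 and 1575. In both lines all bortezomib libraries lay below all vehicle libraries, and the mean dropped by 20.1% in S51 and by 15.3% in S51A. After TMM scaling, which sets the bulk of genes to no change, it dropped by 11.1% and by 8.23%. The summed share of Zfp genes numbered below 700 dropped by 15.5% in S51 and by 15% in S51A, next to the family's own values.

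**Figure D1:**
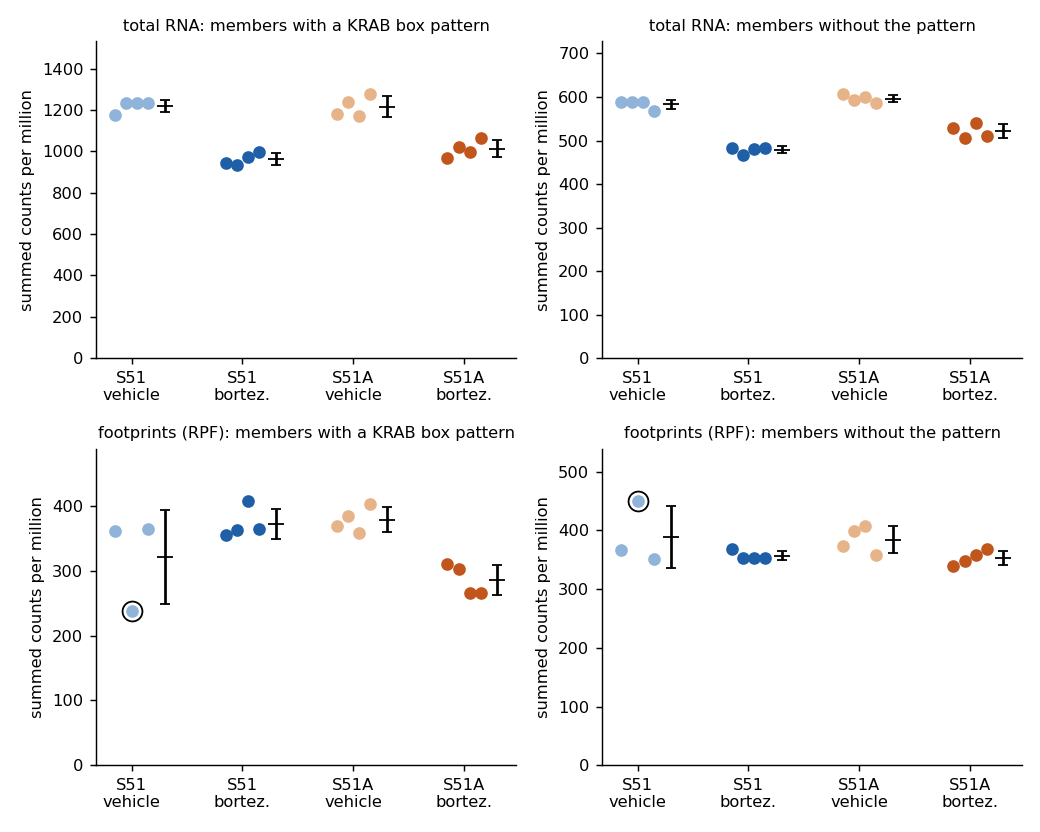
Summed CPM, on unscaled library totals, of members with the KRAB box pattern (left) and without it (right), in total RNA (top) and RPF (bottom). Points are libraries, bars the mean ± SD, and the circled point is RPF S51 vehicle replicate 2, whose KRAB sum of 238 is the lowest of all RPF libraries.

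Of the 103 members tested in S51 total RNA, 4 were called higher with bortezomib, where 5.70% of all genes were, and 17 lower, where 9.59% were. Calls needed an adjusted p under 0.05 in edgeR's quasi-likelihood test together with more than a 1.5-fold difference. The median member changed by -0.29 on the log2 scale, the median Zfp gene below 700 by -0.29 and the median gene by -0.01. Below 0 lay 78 of 103 members and 5955 of all 11708 genes. Without TMM, scaled by library size, 3 members were called higher and 31 lower, where 3.55% and 14.8% of all genes were, and the medians of members and all genes moved to -0.44 and -0.16. In S51A 3 members were called higher (4.54% of all genes) and 12 lower (8.57%). The medians of members, lower-numbered Zfp genes and all genes were -0.07, -0.22 and -0.01, and 60 of 103 members and 6055 of all genes lay below 0. The changes of the same member in the 2 lines, which share no library, had a Spearman correlation of 0.75 over 103 members, given as a description across genes. Called lower in both lines were 10 members, where 5.87% of all genes were, and 2 were called higher in both, where 3.23% were.

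**Figure D2:**
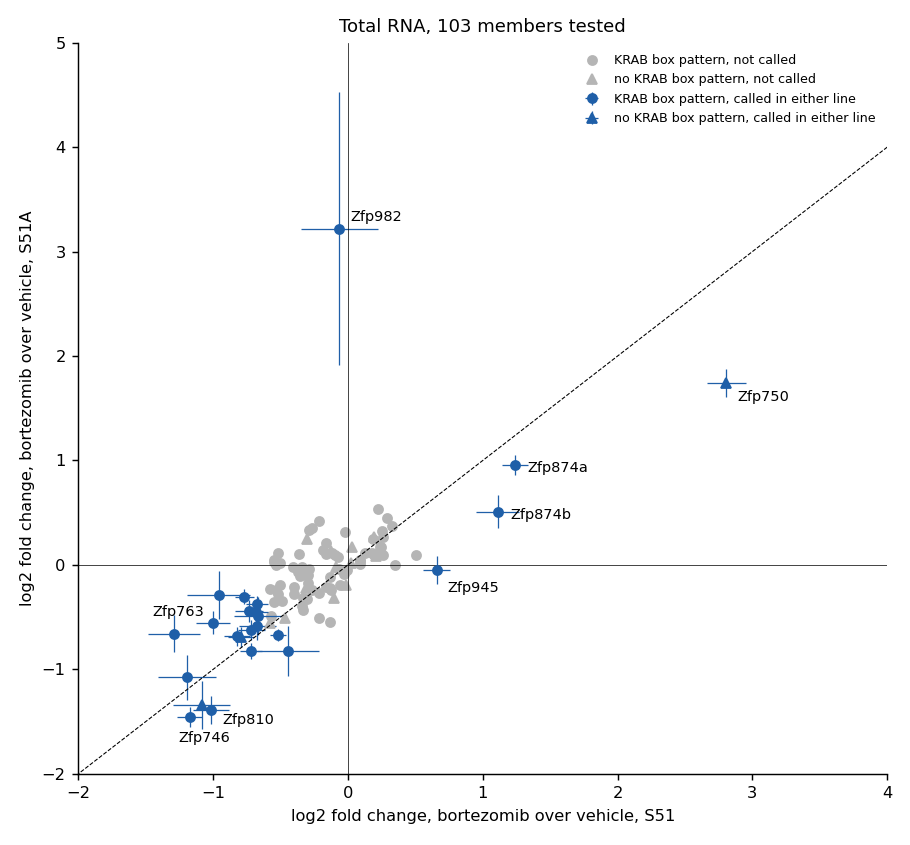
Log2 fold change of total RNA with bortezomib in S51 (x axis) and S51A (y axis) for the 103 tested members, with standard errors for those called in either line. Most points lie below 0 on both axes, Zfp750 and Zfp874a lie high on both, and Zfp982 in S51A rests on 4 counts.

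Zfp750 had the largest rise. This gene encodes a transcription factor that acts downstream of p63 in terminal epidermal differentiation, and it lies on chromosome 11 (chr11:121510976-121519342, minus strand, GRCm38.p6). Its total RNA was at 1.91, 2.51, 1.56 and 1.30 CPM in S51 vehicle and at 14.9, 12.8, 11.1 and 11.8 CPM with bortezomib, a log2 change of 2.81 ± 0.15 (SE, adjusted p = 3.52e-14). In S51A it went from 3.33, 4.11, 3.31 and 2.85 CPM to 12.2, 11.9, 10.8 and 10.7 CPM, a log2 change of 1.74 ± 0.13 (adjusted p = 4.83e-11). No bortezomib library overlapped a vehicle library in either line. With bortezomib the lines differed by 0.15 ± 0.11 (adjusted p = 0.223), while under vehicle S51 was lower by -0.91 ± 0.18 (adjusted p = 8.68e-05). The S51 response exceeded that of S51A by 1.06 ± 0.21 log2 units (adjusted p = 0.000705).

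Zfp874a and Zfp874b are neighbouring KRAB genes on the minus strand of chromosome 13, and their coding sequences are 95.5% identical. Zfp874a also stands in a gene list that the study drew from these samples, so its rise is no independent evidence. Zfp874a was at 5.23, 6.96, 5.37 and 5.94 CPM in S51 vehicle and at 14.3, 14.5, 12.4 and 14.3 CPM with bortezomib, a log2 change of 1.24 ± 0.10 (adjusted p = 6.58e-11). In S51A it was at 5.89, 7.06, 5.67 and 6.18 CPM and then at 11.4, 13, 11.1 and 12.7 CPM, a change of 0.96 ± 0.10 (adjusted p = 8.92e-09). The groups did not overlap in either line, and the difference between the responses, 0.28 ± 0.14, did not pass (adjusted p = 0.160). Zfp874b, at 1.86, 2.23, 1.93 and 1.51 CPM in S51 vehicle, rose to 4.03, 3.57, 3.99 and 4.66 CPM, by 1.11 ± 0.16 (adjusted p = 1.82e-06). In S51A its values of 2.51, 2.12, 2.61 and 2.23 CPM were followed by 2.33, 3.67, 3.71 and 3.75 CPM, with replicate 1 inside the vehicle range. That change of 0.51 ± 0.16 (adjusted p = 0.00835) stayed under 1.5-fold.

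The promoters of the pair are shown because both genes were called higher in S51 and share a short palindrome near the start. They are taken from RefSeq on GRCm38.p6 and run from 250 bases before to 50 after the annotated start, at chr13:67451575-67451874 and chr13:67484204-67484503, both on the minus strand, with the motif TGACGTCA (the cAMP response element, bound by ATF and CREB proteins) in capitals.
Zfp874a: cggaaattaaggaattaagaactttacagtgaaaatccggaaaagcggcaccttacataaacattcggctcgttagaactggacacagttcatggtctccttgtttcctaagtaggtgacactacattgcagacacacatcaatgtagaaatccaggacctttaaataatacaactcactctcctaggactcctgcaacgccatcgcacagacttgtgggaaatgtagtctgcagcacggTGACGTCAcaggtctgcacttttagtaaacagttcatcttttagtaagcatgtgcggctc
Zfp874b: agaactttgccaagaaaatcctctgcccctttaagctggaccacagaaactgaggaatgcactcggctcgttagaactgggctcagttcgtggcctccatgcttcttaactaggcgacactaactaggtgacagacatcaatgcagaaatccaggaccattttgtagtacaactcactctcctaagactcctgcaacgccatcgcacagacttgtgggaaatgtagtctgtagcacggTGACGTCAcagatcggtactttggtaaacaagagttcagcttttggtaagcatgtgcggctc
The element starts 10 bases before the start of Zfp874a and 12 before that used for Zfp874b, and the windows are 77.6% identical over 303 aligned positions. The annotated gene of Zfp874b extends past its window, to 67486241, so the start used lies inside the gene.

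Promoter windows were matched for 120 members, in 139 entries, and 4 motifs were searched on both strands: TGACGTCA, the ATF4-type CARE core TGATGNAAT, the heat shock element GAANNTTC and the AP-1 site TGANTCA, none of which holds another. TGACGTCA was in 4 of 139 member entries (2.88%) and in 1.79% of all 32851 entries. The other entries with it were those of Zfp868, whose RNA differed by 0.09 ± 0.07 in S51 (adjusted p = 0.292), and of Zfp953, which fell. The CARE core was in 0 member entries and 0.965% of all, the heat shock element in 7.19% against 7.86%, and the AP-1 site in 3.60% against 7.81%. A match is a string of letters in the window and no evidence of binding.

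Zfp945, an 18-finger KRAB gene on chromosome 17 (chr17:22846697-22867309), rose in S51 and not in S51A. It was at 5.03, 5.01, 4.36 and 4.60 CPM in S51 vehicle and at 7.66, 6.99, 7.68 and 7.62 CPM with bortezomib, a log2 change of 0.66 ± 0.10 (adjusted p = 4.88e-06). In S51A it was at 2.33, 2.63, 2.56 and 3.20 CPM and then at 2.78, 2.78, 2.29 and 2.50 CPM (-0.05 ± 0.13, adjusted p = 0.783). The ranges in S51A overlapped throughout, and the difference between the responses was 0.71 ± 0.17 (adjusted p = 0.00356). With library sizes alone the S51 change was 0.50 and no longer called. Between the responses of the 2 lines, 2 members were called higher in S51, Zfp750 and Zfp945 (1.34% of all genes), and 1 lower, Zfp931 (0.752%).

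**Figure D3:**
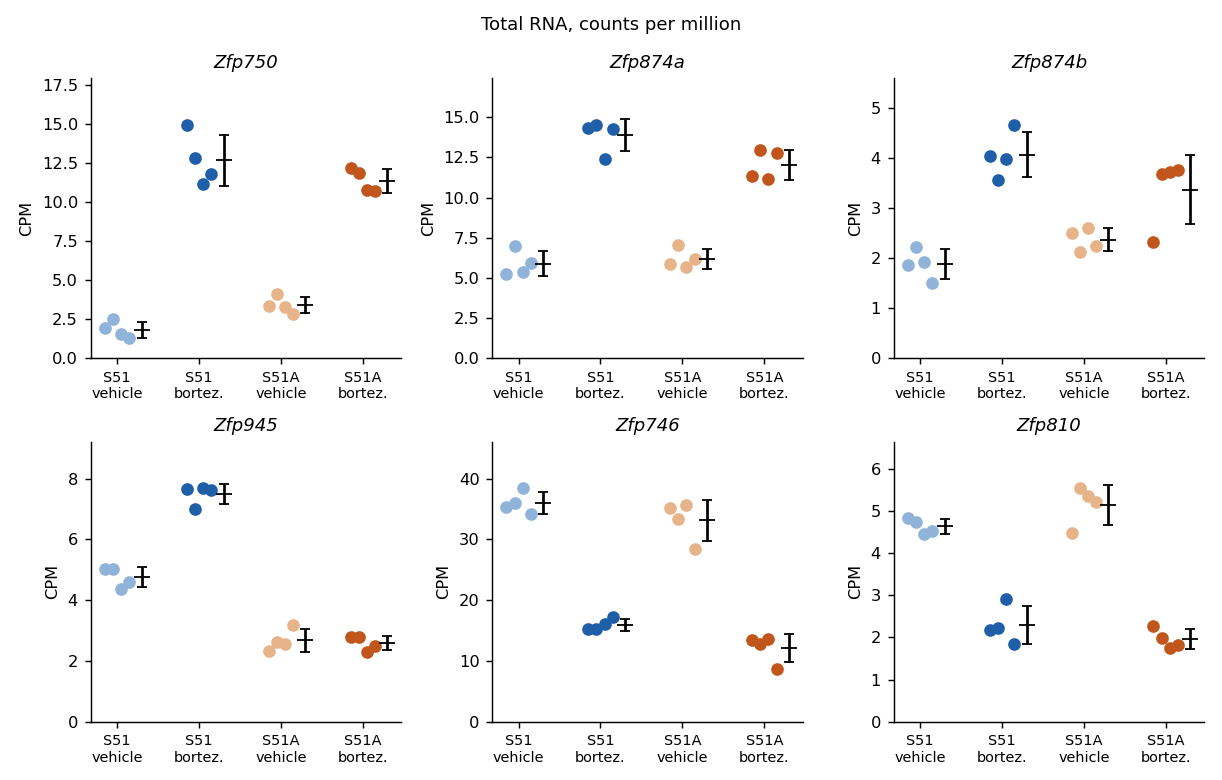
Total RNA of 6 members in CPM, by group, with each library as a point and the mean ± SD beside it. The 4 genes that rose in S51 are followed by Zfp746 and Zfp810, whose bortezomib libraries lie below all vehicle libraries in both lines.

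Zfp746 was the member with the most counts among those that fell by more than 2-fold. It encodes PARIS, a KRAB zinc finger protein that the ubiquitin ligase parkin marks for the proteasome and that represses PGC-1α. In S51 its RNA went from 35.4, 35.9, 38.4 and 34.2 CPM to 15.2, 15.3, 16 and 17.2 CPM, a log2 change of -1.17 ± 0.09 (adjusted p = 7.10e-11). In S51A it went from 35.1, 33.3, 35.7 and 28.4 CPM to 13.4, 12.8, 13.5 and 8.71 CPM, a change of -1.45 ± 0.10 (adjusted p = 4.30e-12). The groups were well separated in both lines, and the responses did not differ beyond their error (0.28 ± 0.13, adjusted p = 0.142). Its promoter (chr6:48086544-48086843, minus strand, RefSeq on GRCm38.p6) is 74.3% G and C, against 43.7% in Zfp874a, and holds none of the 4 motifs, so no letters are in capitals. The annotated gene extends past this window, to 48086986.
Zfp746: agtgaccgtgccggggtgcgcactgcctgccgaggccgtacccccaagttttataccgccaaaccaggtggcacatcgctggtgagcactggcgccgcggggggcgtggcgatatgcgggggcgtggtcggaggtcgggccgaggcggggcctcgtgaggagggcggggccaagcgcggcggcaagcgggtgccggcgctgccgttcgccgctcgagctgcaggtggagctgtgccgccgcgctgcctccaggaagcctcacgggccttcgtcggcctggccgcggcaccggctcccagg

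The other members with the largest drops were low in level. Zfp763 fell from 4.18, 5.57, 4.54 and 5.02 CPM to 1.87, 1.40, 2.48 and 2.15 CPM in S51, by -1.29 ± 0.19 (adjusted p = 2.85e-06). In S51A its change was -0.66 ± 0.18 (adjusted p = 0.00263), and without bortezomib replicate 4 of that group it was -0.45 and not called. Zfp810 fell in both lines, from 4.83, 4.73, 4.45 and 4.52 CPM to 2.17, 2.22, 2.92 and 1.84 CPM in S51 (-1.01 ± 0.13, adjusted p = 5.17e-07). In S51A it went from 4.47, 5.54, 5.37 and 5.21 CPM to 2.28, 1.98, 1.75 and 1.83 CPM (-1.39 ± 0.14, adjusted p = 5.36e-09). None of these ranges overlapped. Zfp759 changed by -1.19 ± 0.21 and -1.08 ± 0.22 in S51 and S51A, and Zfp839, a member with no finger by the pattern used, by -1.09 ± 0.21 and -1.34 ± 0.23. Zfp953 fell by -1.0 ± 0.13 in S51, and its -0.55 ± 0.11 in S51A stayed under 1.5-fold.

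Among the other members called lower in S51, Zfp788, Zfp865, Zfp867, Zfp707 and Zfp974 were called in S51A as well, with changes of -0.67 to -0.82 in S51 and -0.59 to -0.82 in S51A. Of these, the S51A call of Zfp974 was lost without bortezomib replicate 3 (-0.47) or vehicle replicate 1, 2 or 4 (-0.55 to -0.58), and that of Zfp707 without bortezomib replicate 2 or vehicle replicate 3 (-0.58). Zfp786, Zfp748, Zfp808, Zfp955a, Zfp955b and Zfp961 were called in S51 alone. The difference between the responses was not called for any of them, although Zfp961 reached -0.47 ± 0.10 (adjusted p = 0.00155) without passing 1.5-fold. In S51A, Zfp712 (-0.83 ± 0.24, adjusted p = 0.00503) and Zfp930 (-0.67 ± 0.06, adjusted p = 8.53e-10) were called lower. The third S51A call upwards, Zfp982, had 0 counts in every vehicle library and 2, 1, 0 and 1 with bortezomib, under the floor of 3 counts, so no fold is given. DESeq2 called 2 members higher there.

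Zfp931 had estimates of opposite sign in the lines, neither past the call. It was at 5.94, 7.15, 6.43 and 6.86 CPM and then at 5.80, 5.64, 4.47 and 5.73 CPM in S51 (-0.29 ± 0.14, adjusted p = 0.0789). In S51A it was at 4.06, 4.80, 4.97 and 6.57 CPM and then at 5.01, 8.01, 5.95 and 6.78 CPM (0.34 ± 0.14, adjusted p = 0.0462, under 1.5-fold). The difference of -0.63 ± 0.20 (adjusted p = 0.0261) was not called without S51 bortezomib replicate 3 (-0.54), S51 vehicle replicate 2 (-0.59), S51A bortezomib replicate 2 (-0.50), S51A vehicle replicate 1 (-0.53) or S51A vehicle replicate 2 (-0.60).

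The members lie on 17 chromosomes, with 26 on chromosome 7, 23 on chromosome 17 and 14 each on chromosomes 13, 4 and 8 and 13 on chromosome 2. Grouped by neighbouring starts within 500 kb, 92 of the 137 fall into 17 clusters of at least 3. The cluster from Zfp712 to Zfp738 on chromosome 13 (chr13:67038594-67683512) has 10 members, all tested, and held changes in both directions. In S51 Zfp874a and Zfp874b were called higher and Zfp759, Zfp953 and Zfp748 lower, with a median of -0.38, and in S51A Zfp874a was called higher and Zfp712 and Zfp759 lower. Zfp708, which binds the retroelement RMER19B in the germline, lies in this cluster and had -0.36 ± 0.21 (adjusted p = 0.154) in S51. The cluster from Zfp786 to Zfp746 on chromosome 6 (chr6:47815536-48086986) had 4 tested members with a median of -0.59 in S51 and -0.40 in S51A. Its calls were Zfp746 in both lines and Zfp786 (-0.96 ± 0.23) in S51. The cluster on chromosome 17 that ends with Zfp945 had 13 tested members and a median of -0.06 in S51, with 1 call.

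**Figure D4:**
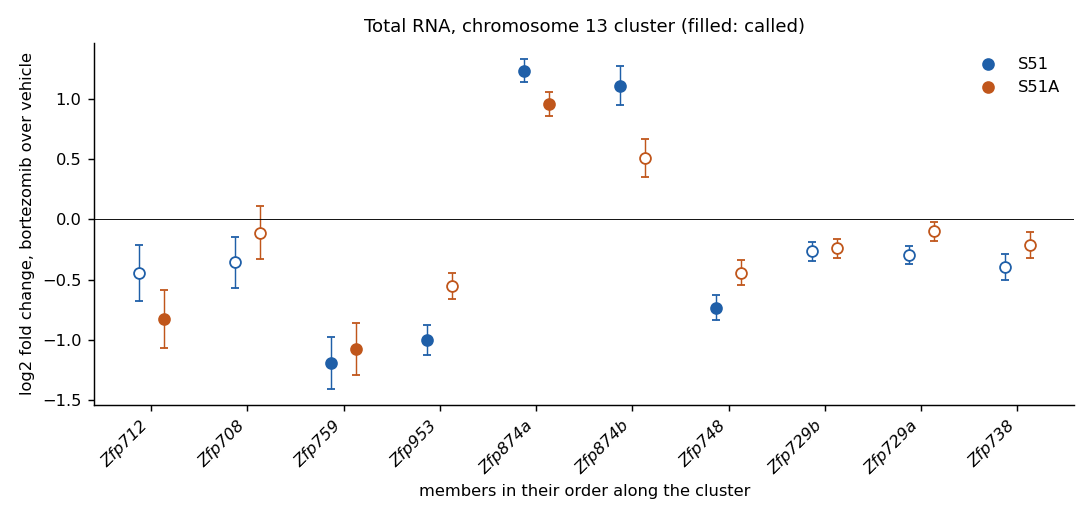
Log2 fold change of total RNA with bortezomib (± SE) for the 10 members of the chromosome 13 cluster, in their order along the chromosome, in S51 and S51A. Filled points are called, with Zfp874a and Zfp874b above 0 between neighbours below 0.

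Of 15 members with a known role, 10 were tested in total RNA. The calls with bortezomib were Zfp750 and Zfp746, in both lines, where 15.3% of all genes were called in S51 and 13.1% in S51A. Zfp809, which recruits TRIM28 to the primer binding site of murine leukaemia proviruses, was at 31.4 to 35.1 CPM in S51 vehicle and at 33.3 to 36.1 CPM with bortezomib (0.09 ± 0.05, adjusted p = 0.176). Zfp932, a repressor of ERVK elements, had -0.55 ± 0.08 in S51 and -0.35 ± 0.08 in S51A, and Zfp768, linked to RAS signalling and senescence, -0.58 ± 0.09 and -0.55 ± 0.09. All 4 of these values had an adjusted p below 0.05 and none passed 1.5-fold. Zfp706 had -0.30 ± 0.03 in S51 and -0.09 ± 0.03 in S51A, Zfp800 -0.10 ± 0.05 and -0.32 ± 0.05, and Zfp830, which acts in splicing and genome stability, 0.19 ± 0.06 and 0.26 ± 0.06. Zfp703 was at 1.39 to 2.29 CPM in S51 vehicle and had 0.21 ± 0.20 (adjusted p = 0.382). Zfp704, Zfp711, Zfp804a, Zfp819 and Zfp827 were too low to test, with 3 to 35 counts over the 16 libraries.

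A list set up for KRAB corepressors had 26 genes tested in total RNA, among them Dnmt1, Uhrf1, Trim24 and Trim33. Recruitment by a KRAB box was not tested. Of the 26, 1 was called higher in S51 total RNA (5.70% of all genes) and 0 lower (9.59%). DESeq2 gave the same counts. An unadjusted p below 0.05 was held by 18 of the 26 and by 7435 of all 11708 genes. In S51A 0 were called higher (4.54%) and 0 lower (8.57%), and DESeq2 also called 0. There 14 had an unadjusted p below 0.05, as had 7051 of all genes. The gene called was Atf7ip2, a SETDB1 partner, at 3.62, 4.73, 3.72 and 4.44 CPM in S51 vehicle and at 7.61, 6.60, 7.39 and 8.75 CPM with bortezomib (0.87 ± 0.13, adjusted p = 1.87e-06). Trim28 had 0.12 ± 0.03 in S51 and -0.08 ± 0.03 in S51A, a difference of 0.21 ± 0.05 (adjusted p = 0.00252) under 1.5-fold. Setdb1 had -0.25 ± 0.05 and -0.28 ± 0.05.

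Between the lines under vehicle, 6 members were higher in S51, where 6.29% of all genes were, and 3 lower, where 11.2% were. With bortezomib 5 were higher (8.23%) and 5 lower (11.7%). The medians were -0.01 and -0.10 for members and -0.00 and -0.01 for all genes. Zfp990, a 13-finger KRAB gene on chromosome 4, had 41, 34, 42 and 49 counts in S51 vehicle and 20, 25, 38 and 23 with bortezomib, and 0 in all 8 S51A libraries. Against a floor of 3 counts per library it was at least 13.7-fold higher in S51 under vehicle and at least 8.75-fold higher with bortezomib. Zfp982, on the same chromosome, had 13, 14, 15 and 19 counts in S51 vehicle and 0 in all S51A vehicle libraries, at least 5.0-fold more. With bortezomib it had 16, 8, 16 and 14 counts against 2, 1, 0 and 1 in S51A, again under the floor, and was called higher in S51 (adjusted p = 2.32e-06, no fold given). Neither gene had a footprint count in any library.

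Zfp976 ran the other way. It had 4, 9, 11 and 10 counts in S51 vehicle and 33, 51, 41 and 40 in S51A vehicle (-2.28 ± 0.30, adjusted p = 5.39e-07), and with bortezomib 6, 6, 6 and 4 against 27, 40, 25 and 64 (-2.80 ± 0.34). The lines did not overlap under either treatment. Zfp945 was higher in S51 by 0.82 ± 0.12 under vehicle and by 1.53 ± 0.11 with bortezomib, and Zfp948, the first gene of the same chromosome 17 cluster, by 0.71 ± 0.07 and 0.78 ± 0.07. Zfp972 (1.03 ± 0.32) and Zfp970 (0.66 ± 0.11) were higher in S51 under vehicle, and Zfp772 was lower (-0.62 ± 0.07, and -0.57 without S51 vehicle replicate 2, no longer called). With bortezomib Zfp777 was higher (0.70 ± 0.06), Zfp953 was lower (-0.81 ± 0.13), and Zfp825, Zfp937 and Zfp763 were lower (-0.61 to -0.66). Each of these last calls was lost without some single libraries: S51 replicate 1 or 3 or S51A replicate 3 for Zfp825 (-0.53 to -0.57), S51 replicate 1 or S51A replicate 2, 3 or 4 for Zfp937 (-0.53 to -0.58) and S51 replicate 2 or S51A replicate 2 or 3 for Zfp763 (-0.53 to -0.58). Among corepressors, Dnmt1 was higher in S51 by 0.79 ± 0.04 under vehicle and 0.77 ± 0.04 with bortezomib, and Atf7ip2 by 0.72 ± 0.15 and 1.24 ± 0.13. Under vehicle 2 corepressors were called higher (6.29% of all genes) and 0 lower (11.2%), and with bortezomib 2 (8.23%) and 0 (11.7%). DESeq2 gave the same counts under either treatment. An unadjusted p below 0.05 in either direction was held by 22 and 21 of 26, and by 7841 and 7990 of all 11708 genes.

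RPFs count ribosomes on the coding sequence. Their summed member counts fell with bortezomib in S51A, as those of RNA did, but not in S51. The S51 vehicle libraries held member counts that summed to 728, 687 and 715 CPM of the unscaled library total and the bortezomib libraries 723, 715, 760 and 716, so the groups overlapped. In S51A the vehicle libraries held 743, 783, 765 and 760 and the bortezomib libraries 649, 649, 623 and 634, all lower, and the mean dropped by 16.3%. For members with the KRAB pattern the S51 vehicle libraries held 361, 238 and 364, the bortezomib libraries 354, 363, 407 and 364, the S51A vehicle libraries 370, 384, 358 and 402, and the S51A bortezomib libraries 310, 302, 265 and 266. The mean KRAB sum dropped by 24.5% with bortezomib in S51A, where no libraries overlapped. In S51 it was 15.8% higher with replicate 2 of the vehicle group and 2.51% higher without it. The summed share of Zfp genes numbered below 700 was 8.81% higher with bortezomib in S51 and 11.1% lower in S51A.

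Of the 47 members tested in RPF, 3 were called higher in S51 with bortezomib, where 7.38% of all genes were, and 4 lower, where 11.2% were. In S51A 1 was higher (4.19%) and 5 lower (6.67%). The median member changed by 0.31 in S51 and -0.20 in S51A, against 8.72e-06 and -0.01 for all genes. Without S51 vehicle replicate 2 the S51 median was 0.07, with 3 calls higher (6.69% of all genes) and 3 lower (9.58%). The S51A median was then -0.19, with 1 (4.58%) and 8 (7.68%). Zfp genes below 700 had medians of 0.02 in S51 and -0.24 in S51A, and -0.03 and -0.24 without that library. The median difference between the responses was 0.57 with that library and 0.36 without it, against 0.01 for all genes in both fits. Members above 0 numbered 37 of 47 and 38 of 47, and of all 9457 genes 4861 and 4883 did. For lower-numbered Zfp genes the median difference was 0.27 and 0.24. KRAB members had a median difference of 0.68 with the library and 0.49 without it, and the 14 members without the pattern -0.06 and 0.03. For the difference 1 member was called, Zfp750, higher in S51 (0.878% of all genes), and 0 lower (0.983%), with 2 calls, both higher, by DESeq2. An unadjusted p below 0.05 in either direction was held by 10 of 47 members and by 1522 of all 9457 genes. The changes of the same member in the 2 lines had a Spearman correlation of 0.43 over 47 members. Without S51 vehicle replicate 2, 3 members were called higher for the difference (1.61% of all genes) and 0 lower (1.44%). These were Zfp750, Zfp930 and Zfp703, the last at 0.71 ± 0.21 (adjusted p = 0.0383).

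Over the 92 members with at least 10 RPF counts, all fitted with the genes past that limit, 5 were called higher in S51 (6.46% of all genes) and 5 lower (9.60%), with a median of 0.35. In S51A 1 was higher (3.67%) and 6 lower (5.81%), with a median of -0.25. Without S51 vehicle replicate 2, 3 were called higher in S51 (5.81% of all genes) and 4 lower (8.30%), with a median of 0.08, and in S51A 1 (4.01%) and 9 (6.85%), with a median of -0.25. The calls that this limit added were low. Zfp874a rose in S51 from 0, 0.967 and 0.498 CPM to 5.09, 1.91, 1.51 and 2.80 CPM, that is from 0, 2 and 2 counts to 18 in all (adjusted p = 0.0304, and 0.0141 without replicate 2), so few that no fold is given. Zfp963 rose from 1.42, 1.45 and 0.996 CPM to 2.91, 2.87, 3.40 and 3.92 CPM (1.40 ± 0.49, adjusted p = 0.0382), and without replicate 2 the change of 1.48 ± 0.60 was not called (adjusted p = 0.0634). It had 73 counts over the 15 libraries, and its S51 vehicle libraries lay near the floor of 3 counts. Zfp839 fell in S51A from 41 counts in all to 5 (-2.39 ± 0.63, adjusted p = 0.00918). In S51 its 28 counts became 6 (-1.80 ± 0.66, adjusted p = 0.0461), a call lost without replicate 2 (-1.62 ± 0.71, adjusted p = 0.0896).

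Footprints of Zfp750 were at 2.83, 4.35 and 2.24 CPM in S51 vehicle and at 31.3, 29.7, 30.3 and 20.7 CPM with bortezomib (3.22 ± 0.30, adjusted p = 2.90e-08). In S51A they went from 7.94, 10.6, 6.22 and 6.29 CPM to 26.7, 30.2, 23.4 and 18.2 CPM (1.63 ± 0.21, adjusted p = 8.24e-06). Under vehicle S51 was lower here too (-1.41 ± 0.33, adjusted p = 0.00285). The response was larger in S51 by 1.59 ± 0.39 (adjusted p = 0.0303), a call lost without any 1 of 9 libraries, S51 bortezomib replicates 1 to 3, S51 vehicle replicates 1 and 3, S51A bortezomib replicates 3 and 4 and S51A vehicle replicates 1 and 2 (1.33 to 1.59), and kept without S51 vehicle replicate 2 (1.83 ± 0.41, adjusted p = 0.00401).

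Footprints of Zfp746 fell in both lines, from 34.0, 46.9 and 25.1 CPM to 8.01, 12.4, 8.70 and 5.04 CPM in S51 (-2.06 ± 0.27, adjusted p = 5.18e-06) and from 34.6, 26.6, 32 and 23.9 CPM to 8.05, 4.39, 9.88 and 7.35 CPM in S51A (-1.94 ± 0.24, adjusted p = 4.54e-06). No libraries overlapped in either line, and without S51 vehicle replicate 2 the S51 change was -1.82 ± 0.25. The footprint change exceeded the RNA change by -0.86 ± 0.31 in S51, which did not pass (adjusted p = 0.0713).

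Among other members called lower in S51 footprints, Zfp865 (-1.19 ± 0.32) and Zfp710 (-0.87 ± 0.21) were called without S51 vehicle replicate 2 as well (-0.88 and -0.80), and Zfp707 (-0.93 ± 0.28) was not (-0.70). The call of Zfp865 was lost without S51 bortezomib replicate 3 (-0.87). Zfp935 rose from 2.13, 0.483 and 1.74 CPM to 4.37, 4.78, 4.16 and 4.48 CPM (1.46 ± 0.42, adjusted p = 0.0111, and 1.19 ± 0.46 without replicate 2). It had 138 counts over the 15 libraries, and replicate 2 of its vehicle group lay under the floor of 3 counts. Zfp871 rose from 36.8, 14.0 and 34.6 CPM to 48, 51.7, 46.5 and 45.4 CPM (0.69 ± 0.21), but without replicate 2 the change was 0.41 and not called. Without that library Zfp703 was called in its place (0.59 ± 0.17, adjusted p = 0.00590).

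In S51A, Zfp930 fell from 12.1, 12.2, 15.8 and 14.8 CPM of footprints to 4.51, 5.36, 7.28 and 3.48 CPM (-1.45 ± 0.27, adjusted p = 0.000416). In S51 it was at 10.3, 5.80 and 12.2 CPM and then at 5.09, 12.4, 10.6 and 11.2 CPM (0.00 ± 0.29, adjusted p = 0.996), and the difference between the responses was 1.45 ± 0.40 (adjusted p = 0.0544) and, without S51 vehicle replicate 2, 1.25 ± 0.38 (adjusted p = 0.0417). Zfp768 went from 20.6, 20.7, 20.3 and 21.1 CPM to 9.34, 11.7, 5.72 and 12.8 CPM in S51A (-1.05 ± 0.28, adjusted p = 0.00952), and Zfp777 from 43.5, 41.4, 44.0 and 37.9 CPM to 21.3, 30.2, 27.0 and 18.6 CPM (-0.79 ± 0.15, adjusted p = 0.000483). All 3 genes had separate groups in S51A. The call of Zfp932 (-0.77 ± 0.27, adjusted p = 0.0453) was lost without any 1 of 11 libraries, all 8 of S51A among them (-0.64 to -0.86).

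**Figure D5:**
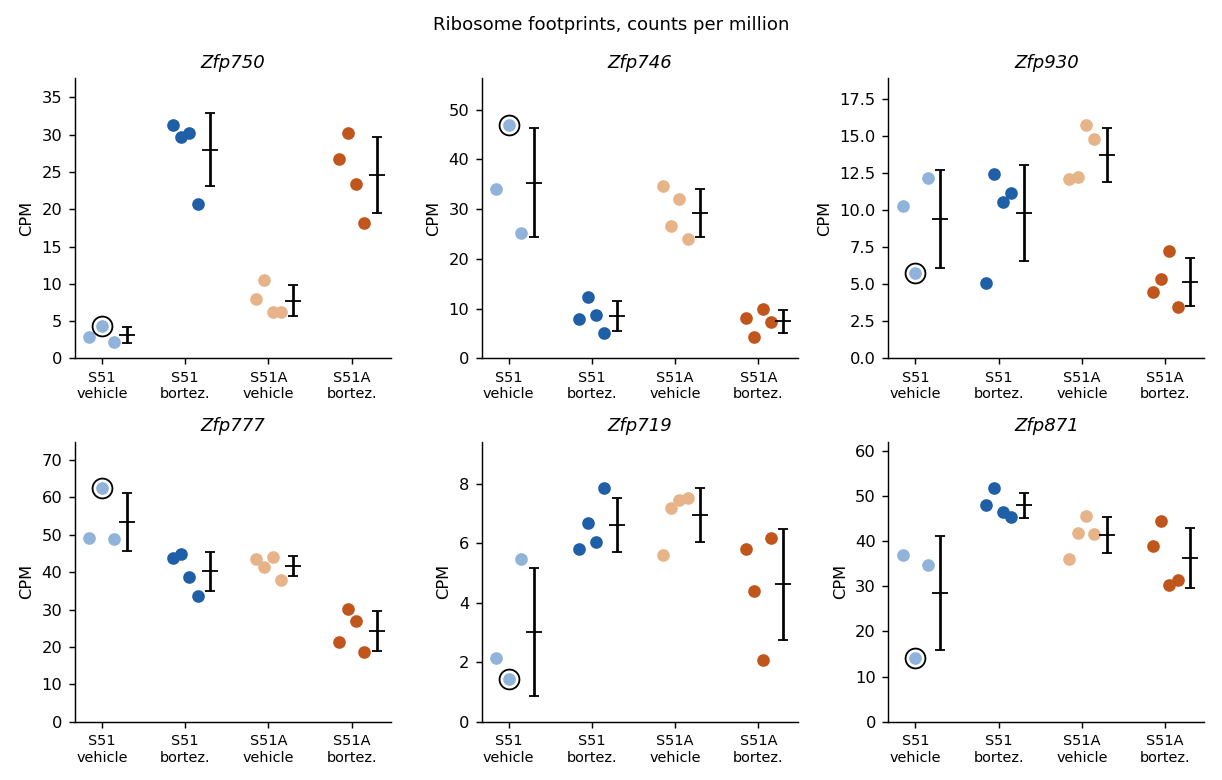
Footprints of 6 members in CPM, by group, with each library as a point, the mean ± SD beside it and RPF S51 vehicle replicate 2 circled. That library is the lowest of its group for Zfp930, Zfp719 and Zfp871 and the highest for Zfp750, Zfp746 and Zfp777.

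Between the lines, footprints under vehicle were called higher in S51 for 1 member, Zfp707 (6.62% of all genes), and lower for 5 (9.19%), Zfp750, Zfp935, Zfp772, Zfp719 and Zfp800, with a median of -0.32. Without S51 vehicle replicate 2 the median was -0.12, and the calls were Zfp948 higher (1.37 ± 0.39, where 5.12% of all genes were higher) and Zfp750 and Zfp772 lower (-1.65 ± 0.37 and -1.04 ± 0.35, where 8.49% were). Of the first 6 calls, those of Zfp750 and Zfp772 were kept without any single library. Zfp772, whose RNA was lower in S51 too, was at 3.90, 3.38 and 3.73 CPM in S51 and at 7.01, 5.70, 12.4 and 7.71 CPM in S51A. With bortezomib 3 members were higher in S51 (7.66%), Zfp948 (1.32 ± 0.47), Zfp930 (0.98 ± 0.31) and Zfp777 (0.73 ± 0.16). None was lower (10% of all genes) by edgeR or DESeq2. An unadjusted p below 0.05 in either direction was held by 4 of 47 members and by 3925 of all 9457 genes. The call of Zfp948 was lost without any bortezomib library but S51 replicate 4 (1.15 to 1.46), and that of Zfp930 without S51 replicate 3 or 4 or S51A replicate 1 or 4 (0.83 to 0.92).

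Several corepressor calls in RPF were lost without the same vehicle library. Tasor and Morc3 were called higher with bortezomib in S51 (0.74 ± 0.28 and 0.59 ± 0.19) and lower in S51 than in S51A under vehicle (-0.68 ± 0.25 and -0.59 ± 0.18), and Ehmt2 was called lower with bortezomib (-0.61 ± 0.15). Without S51 vehicle replicate 2 none of these was called, although the estimates for Tasor stayed near their size (0.64 ± 0.27, adjusted p = 0.0685 with bortezomib, and -0.57 ± 0.25, adjusted p = 0.0761 under vehicle). Those of Morc3 shrank to 0.39 ± 0.15 and -0.39 ± 0.14 and that of Ehmt2 to -0.41 ± 0.12. In that library Morc3 was at 19.3 CPM against 38.3 and 35.8 in the other libraries of the group. Dnmt1 was higher in S51 than in S51A with and without it (0.69 ± 0.09 and 0.63 ± 0.08 under vehicle, 0.77 ± 0.08 and 0.77 ± 0.07 with bortezomib). Atf7ip was called under bortezomib in both fits (0.71 ± 0.10 in each) and under vehicle only with it (0.60 ± 0.10, against 0.56 ± 0.11).

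Translational efficiency (TE), the RPF change minus the total RNA change in 1 model of all 31 libraries, was called higher with bortezomib in S51 for 2 members (1.04% of all genes) and lower for 0 (4.24%), with 10 of 47 at an unadjusted p below 0.05 in either direction. The median member was at 0.45, and at 0.24 without RPF S51 vehicle replicate 2. In S51A 0 were called higher (0.0849%) and 0 lower (0.902%), with 3 at an unadjusted p below 0.05 and a median of -0.15. DESeq2 was not run on the joint model. For the difference between the responses 1 was called higher (0.212%) and 0 lower (1.08%), with 11 at an unadjusted p below 0.05. Its median was 0.60, and 0.38 without RPF S51 vehicle replicate 2. Zfp genes below 700 had median TE changes of 0.14 in S51, -0.09 in S51A and 0.26 for the difference. The medians of all genes were -0.001, -0.01 and 0.01. Unadjusted p was below 0.05 for 2173 of all 9424 genes in S51, 616 in S51A and 1127 for the difference.

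Zfp719, a 13-finger KRAB gene on chromosome 7, carried the TE call in both. Its RNA in S51 fell from 17.0, 17.4, 17.6 and 18.2 CPM to 10.5, 12.2, 13.7 and 12.1 CPM (-0.54 ± 0.08, under 1.5-fold), while its footprints were at 2.13, 1.45 and 5.48 CPM and then at 5.82, 6.70, 6.05 and 7.84 CPM. All bortezomib libraries lay above the vehicle libraries in footprints, but narrowly, the lowest at 5.82 CPM against the highest vehicle library at 5.48 CPM. Zfp719 had 224 footprint counts over the 15 RPF libraries, and its RPF S51 vehicle replicate 2 lay near the floor of 3 counts. TE differed by 1.46 ± 0.36 (adjusted p = 0.00592), or by 1.22 without RPF S51 vehicle replicate 2, still called. In S51A the RNA went from 18.7, 19.1, 19.4 and 20.4 CPM to 14.9, 16.9, 15.3 and 18.4 CPM and the footprints from 5.61, 7.18, 7.47 and 7.50 CPM to 5.80, 4.39, 2.08 and 6.19 CPM, a TE difference of -0.30 ± 0.28. The difference between the lines, 1.76 ± 0.45 (adjusted p = 0.0316), was not called without that library (1.53) or without any 1 of 6 other RPF libraries (1.53 to 1.83). Zfp961 also had a higher TE in S51 (1.08 ± 0.35, adjusted p = 0.0455), a call lost without any 1 of 13 libraries (0.84 to 1.14).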

How the data were processed

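RPF and total RNA libraries of S51 and S51A cells, with vehicle or bortezomib, were analysed. The authors deposited raw read counts per gene, whole numbers without normalization, in 1 table per kind of library. Per their methods, bowtie2 aligned the reads to mm10 and plastid counted them, for RPF inside the coding sequence. The submitters' processing notes also name featureCounts and DESeq2, and versions are not given in the sources used here. Column names add rRNA removal, marked duplicates and unique mapping, which lowers counts of near-identical genes. A note to the series states that the titles of the S51 bortezomib and S51A vehicle samples had been swapped with the data left as they were, and columns were assigned by that note. The labels give 4.5 h of bortezomib and the methods text 4 h.

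Counts were fitted in R 4.3.3 with edgeR 4.0.16 (filterByExpr with a minimum of 10 counts and a total of 15, TMM, glmQLFit with 1 coefficient per group, glmQLFTest), with Benjamini-Hochberg adjustment over 11708 genes in total RNA, 9457 in RPF and 9424 for TE. CPM values of single genes and marker sums used the TMM-scaled totals of the tested genes, and the family sums the raw library totals unless TMM is named. A floor of 3 counts per library, which covers counting error only, gave lower bounds. Spread between replicates exceeded sampling noise in every pair. The steps were run on simulated counts with known changes. Those counts held no outlying library and no deviations shared by replicate number, so they do not cover these features of the data. DESeq2 1.42.0 and other scalings, filters and sample sets were alternatives. Gene sequences and coordinates came from RefSeq on GRCm38.p6. The KRAB A box was scored by a loose pattern of conserved residues, set for this work, in any translated coding sequence of a gene. Fingers were counted in a single coding sequence per gene.

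The family was defined by symbol, but it and the lists were taken up with earlier results of these data known. Members were named by largest called change with non-overlapping groups (up to 6 higher and 6 lower per comparison), known role, level per length, cluster or presence in the study's list. Members and corepressors called but outside that rule were named after their values were seen.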

Additional observations from a re-analysis of the deposited data

Results flagged for a closer look

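Of 185 groups of 4 libraries examined for the named members, 13 held a library far from the other 3, where chance flags about 1 group in 20. In total RNA, the library was low for Zfp746 in S51A bortezomib replicate 4 (8.71 CPM against 12.8 to 13.5), for Zfp808 in S51 vehicle replicate 1 (4.58 CPM), for Zfp874a in S51 bortezomib replicate 3 (12.4 CPM), for Zfp874b in S51A bortezomib replicate 1 (2.33 CPM), for Zfp945 in S51 bortezomib replicate 2 (6.99 CPM), for Zfp976 in S51 bortezomib replicate 4 (0.205 CPM) and for Zfp931 in S51 bortezomib replicate 3 (4.47 CPM). It was high for Zfp865 in S51A vehicle replicate 3 (10.2 CPM), for Zfp867 in S51A vehicle replicate 1 (20.4 CPM) and for Zfp808 in S51A bortezomib replicate 4 (4.76 CPM). In RPF it was low for Zfp750 in S51 bortezomib replicate 4 (20.7 CPM) and for Zfp719 in S51A vehicle replicate 1 (5.61 CPM), and the summed members were high in S51 bortezomib replicate 3 (760 CPM of the unscaled total).

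In the main fits the response to bortezomib differed between the lines for a few members, by the test of the difference itself. In total RNA they were Zfp750 (1.06 higher in S51 on the log2 scale), Zfp945 (0.71) and Zfp931 (-0.63). In RPF it was Zfp750 (1.59), and in TE Zfp719 (1.76). Without S51 vehicle replicate 2, RPF calls for the difference also included Zfp930 (1.25) and Zfp703 (0.71).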

How the results depend on the processing

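No called change of a named member turned its direction under any alternative run. Scaling by library size in place of TMM gave 34 calls and a median of -0.44 in total RNA for S51, a median of -0.19 for S51A, 2 calls for the RPF difference between responses, and 6 TE calls for S51 and 2 for their difference. Calls by adjusted p alone in total RNA numbered 59 in S51, 48 in S51A and 9 for the difference between responses. Between the lines they numbered 33 under vehicle and 40 with bortezomib. Of all 11708 genes, 3475 were higher and 3530 lower on that basis in S51, and 3224 and 3378 in S51A. For the difference these were 1404 and 1122, and between the lines 3798 and 3673 under vehicle and 3791 and 3898 with bortezomib. At 2-fold, members called numbered 9 in S51, 6 in S51A, 4 between the lines under either treatment and 1 for the difference. In this section, calls given without a share of all genes show only how counts depend on the setting. At 2-fold RPF gave 4 calls in S51 and 1 between the lines with bortezomib. Without the filter on low counts RPF gave 11 calls in S51 and 3 for the difference, DESeq2 gave 2 for the latter, and a fit of only the vehicle groups gave 2 between the lines. With at least 1 count required, 89.8% of members passed in total RNA and 81.0% in RPF, and with 10 counts summed 67.2% in RPF.

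Replicate numbers recur across groups, and the labels give them no meaning. In total RNA the deviations of same-numbered libraries correlated at 0.00 to 0.19 (median 0.09, 8 of 24 pairs above 0.1), against a median of -0.03 for different numbers (0 of 72), and 15 of 16 libraries correlated best with their own number. In RPF 3 of 21 same-numbered pairs were above 0.1, and 11 of 15 libraries correlated best with their own number. Not every pair passed 0.1, so the main fits did not take the numbers as pairs. In total RNA same-numbered libraries did share deviations, of which the main fits take no account. With the replicate block the difference between responses had 6 calls in total RNA (3 without it), RPF under vehicle 3 (6) and TE in S51 1 (2). Members not called with it were Zfp719, Zfp935 and Zfp707 in RPF under vehicle (-0.98, -1.02 and 0.62), Zfp948 in RPF with bortezomib (1.25), and in TE Zfp961 (1.00) and the difference for Zfp719 (1.65). Members called only with it were Zfp791, Zfp873 and Zfp874b for the difference between responses in total RNA (-0.62, -0.63 and 0.61) and Zfp930 for that in TE (1.26).

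Leaving out each library in turn gave medians in total RNA of -0.157 to -0.0572 between the lines with bortezomib (lowest without S51A bortezomib replicate 1, highest without replicate 4). In RPF calls ran from 6 (without S51 bortezomib replicate 3) to 12 (without S51 vehicle replicate 3) in S51, from 3 (without S51 vehicle replicate 2) to 9 (without replicate 3) between the lines under vehicle, from 1 to 3 with bortezomib and from 0 (without S51 bortezomib replicate 2) to 3 (without S51 vehicle replicate 2) for the difference, and the S51A median from -0.28 to -0.19. TE calls ran from 1 to 6 in S51 and from 0 to 2 for the difference, whose median ran from 0.38 (without RPF S51 vehicle replicate 2) to 0.86 (without replicate 3). The cause of these shifts was not tested. Over the named members' values, such fits ended a call 99 times and kept its side of the thresholds 1267 times. Depth limited RPF tests to 47 of 137 members. The RPF fit with 10 counts summed but without S51 vehicle replicate 2 was added after seeing the data.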
